A study of Homo sapiens with 6 samples.

Results

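The 10 immediate-early genes described here are EGR1, EGR2, EGR3, IER2, IER3, IER5, IER5L, SRF, CYR61 and CTGF, found by symbol among the 29982 gene symbols of the expression table. All 10 passed the filter of a mean level of at least 1 FPKM over the libraries, which 13287 symbols passed. The cells were OVCAR5, an established ovarian cancer line. They received either the vehicle DMSO (2 libraries, for which the labels give no duration) or 10 µM SpiD7, a covalent spirocyclic dimer that the study used to provoke the unfolded protein response, for 2 h (2 libraries), 6 h (1 library) or 12 h (1 library), all in high-glucose medium with serum. FPKM, the deposited unit, counts fragments relative to transcript length and to the fragments mapped in the library. The table holds no counts, so that the reads behind each value cannot be given; the study's methods state an approximate read number for all samples and none per library.

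Immediate-early genes are transcribed within minutes of a growth factor, a mechanical stimulus, a change of medium or a stress, without the need for new protein. Many carry CArG boxes, the sequence bound by serum response factor (SRF), which acts with ternary complex factors downstream of ERK or with MRTF coactivators downstream of actin. EGR1, EGR2 and EGR3 are zinc-finger transcription factors of that class. IER2, IER3, IER5 and IER5L are short immediate-early response proteins, and CYR61 and CTGF are secreted matricellular proteins that are widely used as readouts of YAP and TAZ acting through TEAD factors.

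For 7 of the 10 genes, 10 promoter windows of 250 bases ending at a RefSeq transcription start (build GRCh38.p14) were read. EGR3, IER3 and CYR61 had no entry. Of the 4 windows printed below, those of EGR1, SRF and CTGF carry most of the CArG boxes and TEAD motifs found. IER5 was added because its levels departed from those of most of the 10 genes. Its window carried neither motif, nor did those of IER2 and IER5L, and a link to the levels was not tested. Each is written 5′ to 3′ on the strand of its gene, and capitals mark CArG boxes or GGAATG, the core motif of TEAD factors.
EGR1 (chr5:138465229-138465478, plus strand): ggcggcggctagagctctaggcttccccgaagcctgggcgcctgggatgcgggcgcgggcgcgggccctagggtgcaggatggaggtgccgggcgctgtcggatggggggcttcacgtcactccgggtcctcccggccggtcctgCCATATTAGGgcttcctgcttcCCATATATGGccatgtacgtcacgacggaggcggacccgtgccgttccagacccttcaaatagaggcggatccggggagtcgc
SRF (chr6:43171019-43171268, plus strand): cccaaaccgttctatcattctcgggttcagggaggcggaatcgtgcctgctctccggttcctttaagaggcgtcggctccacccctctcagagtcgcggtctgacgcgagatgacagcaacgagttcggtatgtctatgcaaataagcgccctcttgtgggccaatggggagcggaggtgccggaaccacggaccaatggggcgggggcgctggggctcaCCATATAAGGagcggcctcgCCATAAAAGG
CTGF (chr6:131951373-131951622, minus strand): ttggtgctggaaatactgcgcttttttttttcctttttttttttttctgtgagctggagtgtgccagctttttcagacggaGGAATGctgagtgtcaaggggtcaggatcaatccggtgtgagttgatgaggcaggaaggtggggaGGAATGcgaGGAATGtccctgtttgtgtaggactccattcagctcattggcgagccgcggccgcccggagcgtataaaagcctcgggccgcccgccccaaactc
IER5 (chr1:181088450-181088699, plus strand): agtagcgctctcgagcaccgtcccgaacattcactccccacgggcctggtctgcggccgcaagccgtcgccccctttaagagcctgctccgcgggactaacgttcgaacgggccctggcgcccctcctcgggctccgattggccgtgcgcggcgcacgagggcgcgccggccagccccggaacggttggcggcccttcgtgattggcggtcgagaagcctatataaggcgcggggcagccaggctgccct

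The EGR1 window held 2 CArG boxes, at 105 and 83 bases before the start, and 2 copies of TGACGT, the core of the site of CREB and ATF factors, at 136 and 67 bases. The printed SRF window held 2 CArG boxes, at 30 and 10 bases, in the gene that encodes the factor binding them. The other SRF window (chr6:43172146-43172395, plus strand) held no CArG box, GGAATG or TGACGT. One of the 3 EGR2 windows (chr10:62816367-62816616, minus strand) held 1 CArG box and 1 TGACGT, and another held 2 copies of GGAATG. The CTGF window held 3 copies of GGAATG, at 169, 104 and 95 bases. Searched on both strands, a CArG box was present in 1.16% of the 34943 promoter windows of all genes and 2 or more were present in 0.0315%. GGAATG was present in 11.9% of windows, 3 or more copies in 0.0830%, and TGACGT in 7.09%. Windows of IER2, IER5 and IER5L held no CArG box, GGAATG or TGACGT. Neither the heat shock element in its form of alternating GAA, TTC and GAA units, each a pair of bases apart, nor GCGTGGGCG, the site of EGR1, was found in a window of the 10 genes (0.441% and 0.721% of all windows). These matches describe letters only.

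The expression table gives both sides of 4 comparisons, 3 of which used the same DMSO library, DMSO 1. The columns named for the second DMSO and the second 2 h library behaved as the authors' means over the libraries of a group: of the 18195 rows above 0 in DMSO 1, 0 were at 0 in that column. DMSO 2 and the second 2 h library were therefore recovered by subtraction, and every value given for them rests on that step. Epithelial and ovarian markers (8 genes) summed to between 3015 and 4484 FPKM in all libraries, most of it KRT8 and KRT18. KRT7 and EPCAM were high too, but WT1 stayed at or below 0.141 FPKM and MUC16 at or below 0.686 FPKM. PAX8 was low, between 1.64 and 2.12 FPKM. CDH1 was at 11.4 and 19.2 FPKM in DMSO, 11.8 and 19.3 FPKM at 2 h, 10.4 FPKM at 6 h and 12.8 FPKM at 12 h. Of the leukocyte markers, PTPRC did not exceed 0.0317 FPKM and CD3E was listed at 0 in each library. CD14, also a leukocyte marker, was at 4.08 and 4.96 FPKM in the DMSO libraries and 4.87 and 3.10 FPKM at 2 h. It was at 5.68 FPKM at 6 h and 9.36 FPKM at 12 h.

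In 8 of the 10 genes the vehicle libraries differed from each other by more than the mean of the 2 h libraries, the 6 h library or the 12 h library differed from either of them. The share of all genes in that position at all times together was not computed. Taking times alone, both 2 h libraries were above both vehicle libraries in 13.7% of all genes and below both in 8.10%. At 6 h, 31.6% of all genes were above both vehicle libraries and 29.2% below both. At 12 h these shares were 30.1% and 35.6%. EGR1 was at 5.80 FPKM in DMSO 1 and 348 FPKM in DMSO 2. EGR2 was at 0.105 FPKM in DMSO 1 and 82.7 FPKM in DMSO 2. EGR3 was at 0.0381 FPKM in DMSO 1 and 37.4 FPKM in DMSO 2. The 3 EGR genes were thus close to silent or low in one vehicle library and at their highest level of the series in the other.

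The same split held for the matricellular genes. CTGF was at 36.5 FPKM in DMSO 1 and 822 FPKM in DMSO 2, a ratio of 22.6. CYR61, already abundant in DMSO 1 at 137 FPKM, was at 568 FPKM in DMSO 2. IER3, a regulator of apoptosis under stress, was at 43.7 FPKM in DMSO 1 and 509 FPKM in DMSO 2, while IER2, a nuclear protein, was at 26.1 and 214 FPKM. SRF differed less, at 8.42 and 26.6 FPKM. The vehicle pair was close for IER5 (9.98 and 13.2 FPKM) and IER5L (18.5 and 15.2 FPKM) alone.

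In all, 8 of the 10 genes were more than 2-fold higher in DMSO 2 than in DMSO 1 and 0 were more than 2-fold lower. Of all genes tested, 8.72% were higher and 4.77% lower by that much. The median difference of the 10 genes was 3.29 on the log2 scale of FPKM + 0.1, on which all folds and log2 changes below are given unless named as FPKM ratios, and the median over all genes was -0.06. Ranked by that difference among 13287 genes, EGR2 stood at 16, EGR3 at 27, EGR1 at 53, CTGF at 73, IER3 at 109 and IER2 at 149. The log2 difference was 8.65 for EGR2, 8.09 for EGR3, 5.88 for EGR1 and 4.49 for CTGF.

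**Figure D1:**
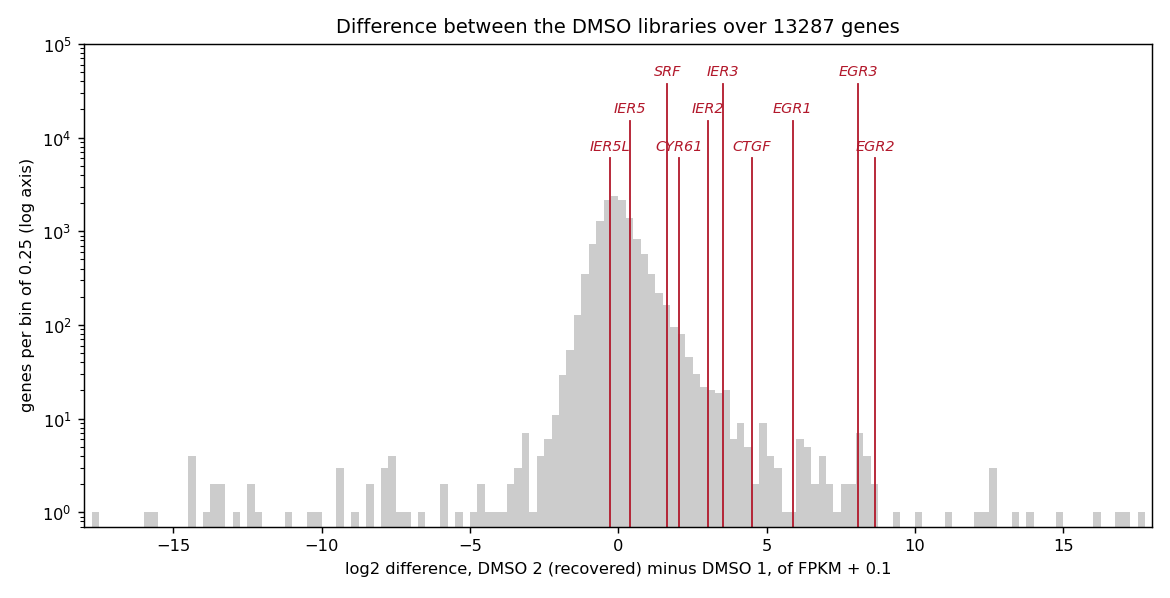
Histogram over 13287 genes of the log2 difference between the recovered DMSO 2 library and DMSO 1 (x axis, log2 of FPKM + 0.1; y axis, genes per bin of 0.25, log scale), with a vertical line at each of the 10 genes. IER5L and IER5 fall in the central peak, at -0.29 and 0.40, and the other genes lie to its right, from 1.65 for SRF to 8.65 for EGR2.

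Some other features of the libraries moved with that difference. PECAM1, an endothelial marker, was at 0.736 FPKM in DMSO 1 and 10.7 FPKM in DMSO 2, at 0.961 and 7.74 FPKM in the first and second 2 h libraries, and at 0.320 and 0.942 FPKM at 6 h and 12 h. VWF, the other endothelial marker, stayed at or below 0.0860 FPKM. The 3 fibroblast markers, mostly COL1A1, summed to 0.689 FPKM in DMSO 1 and 2.33 FPKM in DMSO 2, and to 0.820 and 2.05 FPKM at 2 h. Their sums at 6 h and 12 h, 1.21 and 1.79 FPKM, lay between those of the first and second libraries. COL1A2 hardly differed between the vehicle libraries, at 0.0136 and 0.0152 FPKM. The 3 leukocyte markers, nearly all CD14, did not follow that difference. They summed to 4.11 and 4.98 FPKM in DMSO, 4.89 and 3.12 FPKM at 2 h, 5.68 FPKM at 6 h and 9.37 FPKM at 12 h. The small RNA gene MIR6723 held 9.19% of the FPKM total in DMSO 1, 25.0% in DMSO 2, 8.64% and 21.8% in the 2 h libraries, 5.04% at 6 h and 6.93% at 12 h. In PECAM1 and MIR6723 the single 6 h and 12 h libraries were near the first libraries and not the second ones. This applies to each comparison of 6 h or 12 h with DMSO 2. The part of these features in the differences of the immediate-early genes was not tested. In bulk RNA, fewer cells of a type and less RNA per cell cannot be told apart.

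**Figure D2:**
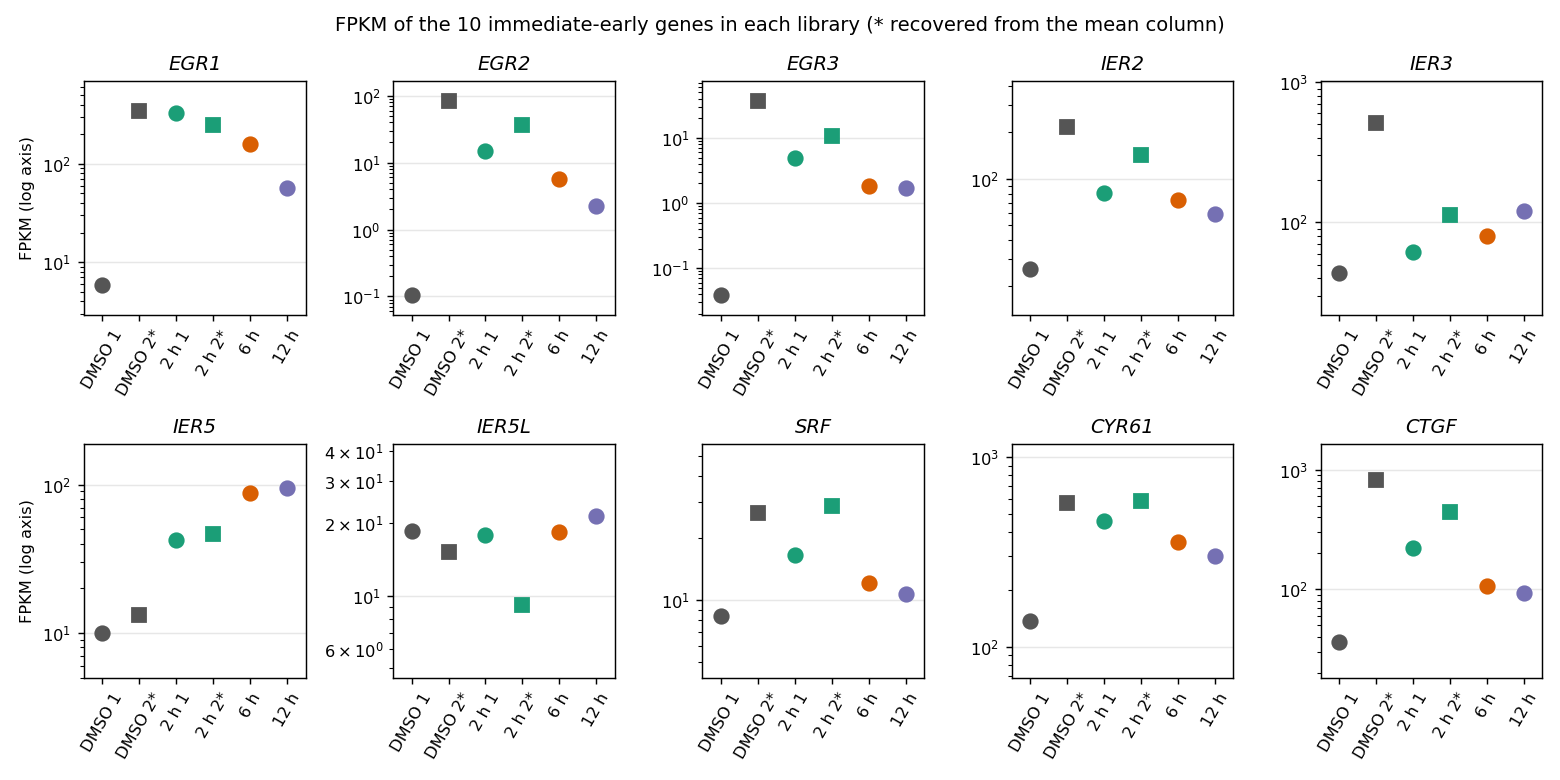
FPKM (y axes, log scale, a separate range for each gene) of the 10 genes in each of the 6 libraries (x axes); circles are libraries read from a column and squares (asterisk) libraries recovered from a mean column, 1 point per library with no error bars. In the EGR genes, IER2, IER3 and CTGF the DMSO libraries lie below and above all SpiD7 libraries, whereas IER5 is above both DMSO libraries in each SpiD7 library.

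After 2 h of SpiD7, the replicate libraries were closer to each other on the log2 scale than the vehicle libraries were for every gene but IER5L. EGR1 was at 328 and 247 FPKM (mean 287 ± 57.7, SD, n = 2), against 177 ± 242 FPKM (SD, n = 2) in DMSO. EGR2 was at 15.1 and 36.2 FPKM and EGR3 at 4.94 and 10.9 FPKM. Both levels lay between those of DMSO 1 and DMSO 2. The second library was the higher one for 8 of the genes but by more than 2-fold for EGR2 and EGR3 only, beside 6.43% of all genes.

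IER2 was at 80.4 and 142 FPKM, IER3 at 61.4 and 114 FPKM and CTGF at 222 and 438 FPKM in the 2 h libraries, each between the vehicle libraries. SRF was at 16.5 and 28.7 FPKM and CYR61 at 458 and 587 FPKM. For SRF and CYR61 the second 2 h library slightly exceeded DMSO 2 and the first did not. IER5, which binds the heat shock factor HSF1 and protein phosphatase 2A, was at 42.1 and 46.7 FPKM, above both vehicle libraries. IER5L, its relative, was at 17.9 and 9.15 FPKM.

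Against DMSO 1, the mean of the 2 h libraries was more than 2-fold higher for 8 of the 10 genes and more than 2-fold lower for 0. Of all genes, 5.59% were higher and 1.01% lower by that much. The log2 change was 6.84 for EGR2, 5.75 for EGR3, 5.59 for EGR1, 3.09 for CTGF, 2.14 for IER5, 2.03 for IER2, 1.92 for CYR61 and 1.36 for SRF. IER3 (0.93) and IER5L (-0.53) did not pass 2-fold. Each of these is a difference from 1 vehicle library and carries no test.

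Against DMSO 2, the same 2 h mean was more than 2-fold higher for 1 gene, IER5, and more than 2-fold lower for 5 genes, where 2.69% and 2.92% of all genes were higher and lower by that much. The lower genes were IER3 (-2.60 on the log2 scale), EGR3 (-2.34), EGR2 (-1.82), CTGF (-1.40) and IER2 (-1.002, at the limit). EGR1 (-0.29), SRF (-0.28), CYR61 (-0.13) and IER5L (-0.24) lay within 2-fold. The median of the 10 genes was 2.09 against DMSO 1 and -0.65 against DMSO 2, while the medians over all genes were -0.01 and 0.05.

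Libraries of the same replicate number gave the same contrast. The first 2 h library held 56.6 times the EGR1 level of DMSO 1, as a ratio of FPKM, and the second held 0.709 times that of DMSO 2. For CTGF the ratios were 6.09 and 0.533, and for IER3 they were 1.41 and 0.224. For IER5 they were 4.22 and 3.55.

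**Figure D3:**
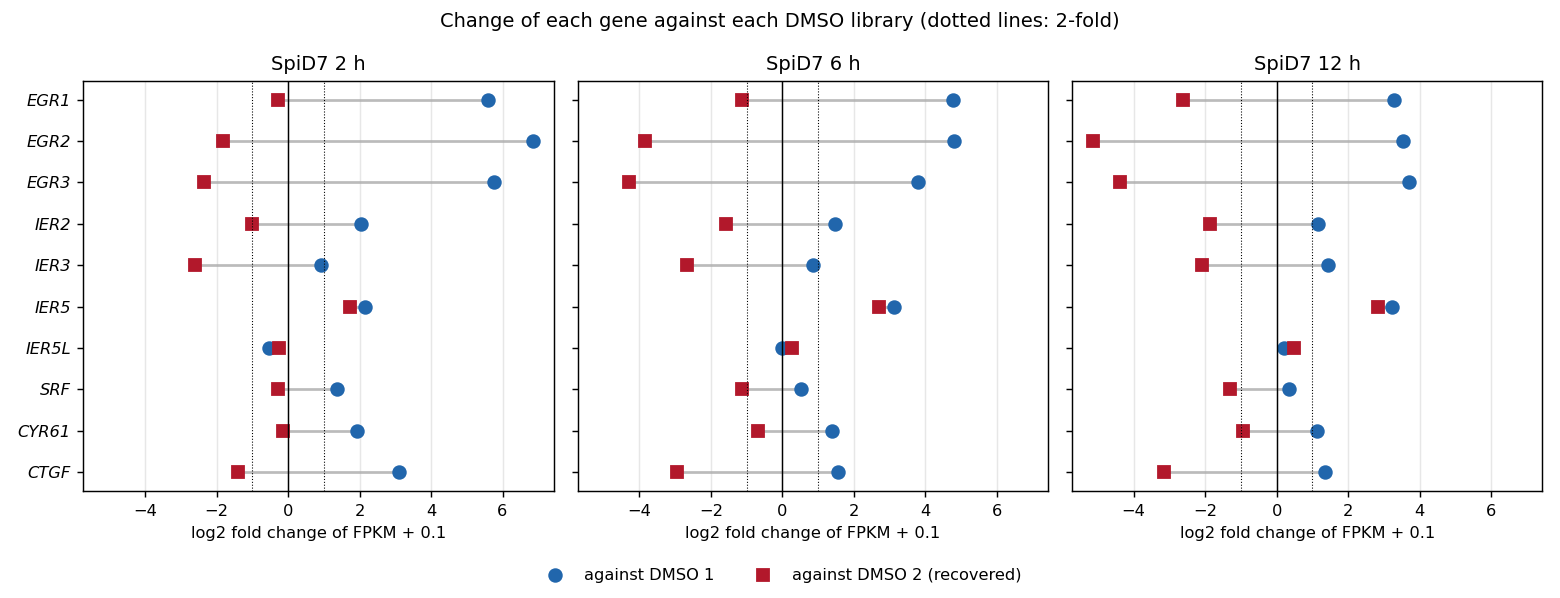
Log2 fold change of FPKM + 0.1 (x axes) of each gene at 2 h (mean of 2 libraries), 6 h and 12 h (1 library each) against DMSO 1 (blue circles) and against the recovered DMSO 2 (red squares), with dotted lines at 2-fold. At 12 h the 3 EGR genes lie at 3.27 or more against DMSO 1 and at -2.61 or less against DMSO 2, and only the IER5 pair stays beyond 2-fold on the same side at all 3 times.

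When both vehicle libraries entered the test (limma on log2 values of the 6 libraries, Benjamini-Hochberg adjustment over 13287 genes), 0 of the 10 genes were called at 2 h, 6 h or 12 h at an adjusted p under 0.05. Of all genes tested, 0.0226% were called at 2 h, 0.294% at 6 h and 0.339% at 12 h. At an unadjusted p under 0.05, 1 of the 10 genes, IER5, passed at each time, beside 2.84%, 5.55% and 9.19% of all genes at 2 h, 6 h and 12 h. The log2 change of EGR1 at 2 h was 2.65 with a standard error of 2.24 (limma, adjusted p = 1.0), and that of EGR2 was 2.51 with a standard error of 3.32. The spread came from the DMSO and 2 h pairs, and the single 6 h and 12 h libraries were assumed to vary alike.

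At 6 h, EGR1 was at 161 FPKM, EGR2 at 5.65 FPKM, EGR3 at 1.82 FPKM and CTGF at 107 FPKM. CYR61 was at 357 FPKM, IER3 at 79.6 FPKM, IER2 at 72.3 FPKM, IER5L at 18.4 FPKM and SRF at 12.1 FPKM. IER5 stood at 87.1 FPKM. All but IER5 lay between the DMSO libraries, where 31.6% of all genes were above both and 29.2% below both.

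Against DMSO 1, 7 of the 10 genes lay above by more than 2-fold at 6 h and 0 below, beside 6.28% and 0.993% of all genes. SRF (0.51), IER3 (0.86) and IER5L (-0.01) were within 2-fold. Against DMSO 2, 1 gene was more than 2-fold higher (IER5, 2.72) and 7 were more than 2-fold lower, beside 7.76% and 7.77% of all genes. EGR3 (-4.29) and EGR2 (-3.85) were the lowest of these. The medians of the 10 genes were 1.51 and -1.35.

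At 12 h, EGR1 was at 56.9 FPKM, EGR2 at 2.28 FPKM, EGR3 at 1.71 FPKM and CTGF at 92.4 FPKM. IER2 was at 58.7 FPKM, CYR61 at 299 FPKM, SRF at 10.7 FPKM and IER3 at 119.6 FPKM. IER5 was at 94.2 FPKM and IER5L at 21.4 FPKM. These last 2 genes were the ones above both DMSO libraries, IER5L by 0.20 and 0.49 on the log2 scale.

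At 12 h, 8 of the 10 genes exceeded DMSO 1 by more than 2-fold and 0 fell short of it by as much, beside 8.21% and 4.03% of all genes. Against DMSO 2, 1 was higher and 7 were lower, beside 7.01% and 7.56%. The log2 change of EGR2 was 3.53 against DMSO 1 and -5.12 against DMSO 2. The medians of the 10 genes were 1.40 and -1.98.

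The order of the SpiD7 libraries did not involve the vehicle. In 7 of the 10 genes (EGR1, EGR2, EGR3, IER2, SRF, CYR61 and CTGF) the 12 h library was below the 6 h library and the 6 h library below both 2 h libraries, an order found in 13.9% of all genes. At 12 h, EGR2 held 8.87% of its mean 2 h FPKM, EGR1 19.8%, EGR3 21.7% and CTGF 28.0%. These 4 genes were more than 2-fold below both 2 h libraries, beside 0.933% of all genes. SRF (47.4%), IER2 (52.7%) and CYR61 (57.2%) kept more. From 6 h to 12 h, EGR1 differed by -1.49 on the log2 scale, more than the 0.41 between its 2 h libraries, and EGR2 by -1.28, about as much as the 1.26 between its 2 h libraries. For EGR3, SRF, CTGF, IER2 and CYR61 the 6 h and 12 h levels were closer to each other than the 2 h libraries were, so that their last 2 times were not separated by more than that spread. With 1 library at 6 h and 1 at 12 h, this order has no replicate check.

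IER5 and IER5L had the opposite order, with 12 h above 6 h and 6 h above both 2 h libraries (12.2% of all genes). IER5 at 12 h held 212% of its mean 2 h FPKM. For IER5L the first 2 h library, 17.9 FPKM, the 6 h library, 18.4 FPKM, and DMSO 1, 18.5 FPKM, could hardly be separated, given the 2 h pair at 17.9 and 9.15 FPKM. IER3 followed neither order, with 79.6 FPKM at 6 h between the 2 h libraries.

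IER5 was the single gene of the 10 with every SpiD7 library above both DMSO libraries. This 1 of 10 is near the 8.93% of all genes in that position. Taking each time alone, 1 of the 10 genes was above both vehicle libraries at 2 h (13.7% of all genes), 1 at 6 h (31.6%) and 2 at 12 h (30.1%). Its log2 change against both vehicle libraries was 1.94 with a standard error of 0.22 at 2 h (limma, adjusted p = 0.949), 2.91 with 0.27 at 6 h (adjusted p = 0.209) and 3.03 with 0.27 at 12 h (adjusted p = 0.163). In FPKM, its level was 11.6 ± 2.25 (SD, n = 2) in DMSO and 44.4 ± 3.29 (SD, n = 2) at 2 h. The adjusted test was not passed. An exact permutation test of 2 against 2 libraries cannot go below a two-sided p of 0.333.

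Levels over the 6 libraries, centred on each gene's own mean, were compared with those of EGR1. The nearest gene was ATF3, a stress-induced transcription factor (root mean square difference 0.63 on the log2 scale), at 1.06 and 99.4 FPKM in the DMSO libraries, 46.0 and 80.2 FPKM at 2 h, 57.0 FPKM at 6 h and 31.9 FPKM at 12 h. FOS, a subunit of AP-1, came next (0.65), at 2.34 and 373 FPKM in DMSO, 263 and 338 FPKM at 2 h, 164 FPKM at 6 h and 98.7 FPKM at 12 h. LOC101927044 (0.86), BTG2 (0.87), an antiproliferative gene, and NR4A2 (0.89), an orphan nuclear receptor, followed. Among the 10 genes, EGR3 ranked at 11, EGR2 at 18 and CTGF at 19 in nearness to EGR1. IER2 ranked at 41, CYR61 at 50, SRF at 140 and IER3 at 335, while IER5 ranked at 3129 and IER5L at 11649.

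The gene nearest to IER5 was BHLHA15, a transcription factor of secretory cells (0.20), at 1.09 and 1.06 FPKM in DMSO, 3.08 and 4.41 FPKM at 2 h, 7.62 FPKM at 6 h and 7.91 FPKM at 12 h. MEX3B, which encodes an RNA-binding protein (0.26), and SNAI1, a transcriptional repressor (0.28), followed. The abundant gene DNAJB1, an HSP40 cochaperone (0.28), was at 106 and 127 FPKM in DMSO, 519.6 and 621 FPKM at 2 h, 1414 FPKM at 6 h and 1513 FPKM at 12 h. FAM46A (0.29) was the fifth. Likeness over 6 libraries is given as a description with no test.

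A wider list of 36 immediate-early genes, none of them among the 10, all passed the filter. In DMSO 2, 31 of the 36 were more than 2-fold higher than in DMSO 1 and 0 were lower, beside 8.72% and 4.77% of all genes, with a median log2 difference of 2.33. Against DMSO 1, 25, 24 and 23 of them passed 2-fold upward at 2 h, 6 h and 12 h (medians 1.57, 1.91 and 1.75), and 0 downward. Upward shares of all genes were 5.59%, 6.28% and 8.21%, and downward shares 1.01%, 0.993% and 4.03%. Against DMSO 2, 14, 17 and 18 were more than 2-fold lower and 0, 2 and 1 higher (medians -0.80, -0.82 and -0.99). Of all genes, 2.92%, 7.77% and 7.56% were lower and 2.69%, 7.76% and 7.01% higher by that much. By limma, 0 of the 36 were called at any time, and 0 had an unadjusted p under 0.05. KLF4, a transcription factor, GEM, a small GTPase, and PPP1R15A, which directs dephosphorylation of eIF2α, were above both DMSO libraries in each SpiD7 library; these 3 of 36 genes are a share near the 8.93% of all genes in that position.

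FOSB, another AP-1 subunit, had the highest log2 change of the 36 against both vehicle libraries at 2 h. It was at 0.127 and 156 FPKM in DMSO, 55.7 and 142 FPKM at 2 h, 55.5 FPKM at 6 h and 40.7 FPKM at 12 h, so that every SpiD7 library lay between the vehicle libraries. ARC, known from neurons, had the highest change at 12 h, at 0.925 and 53.2 FPKM in DMSO, 22.7 and 44.8 FPKM at 2 h, 141 FPKM at 6 h and 94.9 FPKM at 12 h. DUSP4, a phosphatase of MAP kinases, was the lowest at 2 h, at 6.05 and 8.08 FPKM in DMSO and 5.43 and 3.24 FPKM at 2 h. NR4A3, an orphan nuclear receptor, was the lowest at 12 h, at 3.88 and 33.8 FPKM in DMSO and 3.66 FPKM at 12 h.

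**Figure D4:**
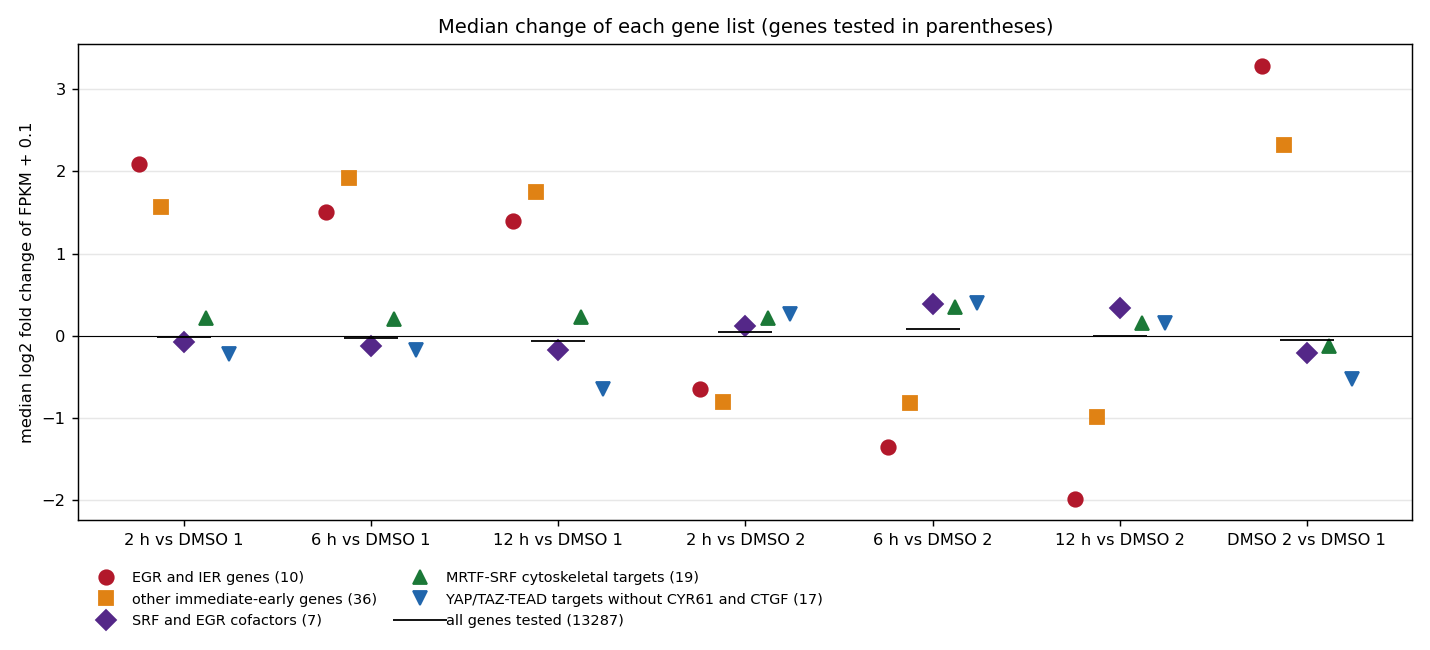
Median log2 fold change of FPKM + 0.1 (y axis) of the 10 EGR and IER genes and of each gene list in 7 comparisons (x axis), with a short black line at the median of all 13287 genes. The 10 genes and the 36 other immediate-early genes are at 1.40 or above in all comparisons with DMSO 1 and at -0.65 or below in all SpiD7 comparisons with DMSO 2, whereas the cofactor, cytoskeletal and YAP lists stay between -0.64 and 0.40.

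The cofactors through which SRF and the EGR proteins act differed little between the vehicle libraries. Of 8 listed, 7 passed the filter, and their median was -0.20 between the vehicle libraries. There, 0 were more than 2-fold apart, beside 8.72% of all genes higher and 4.77% lower in DMSO 2. NAB2, a corepressor of EGR proteins, was the 1 gene of these 7 above both DMSO libraries in each SpiD7 library (8.93% of all genes), at 10.8 and 17.1 FPKM in DMSO, 18.5 and 26.3 FPKM at 2 h, 40.2 FPKM at 6 h and 24.4 FPKM at 12 h. MKL1, which encodes an MRTF coactivator, was at 6.46 and 4.62 FPKM in DMSO and 4.96 and 4.19 FPKM at 2 h. MKL2, which encodes another, was at 8.16 and 7.07 FPKM in DMSO and 3.11 FPKM at 12 h (log2 change -1.26, standard error 0.23, limma, adjusted p = 0.446).

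Among 19 tested cytoskeletal targets of MRTF and SRF, of 20 listed, 3 were more than 2-fold higher and 1 lower in DMSO 2 than in DMSO 1 (8.72% and 4.77% of all genes), with a median of -0.12. VCL, FHL2 and ZYX, which encode focal adhesion proteins, were above both DMSO libraries in each SpiD7 library, 3 of 19 genes beside 8.93% of all genes. VCL (vinculin) was at 38.2 and 35.1 FPKM in DMSO, 62.2 and 98.4 FPKM at 2 h, 56.7 FPKM at 6 h and 44.9 FPKM at 12 h (at 2 h log2 change 1.09, standard error 0.30, limma, adjusted p = 1.0). ACTN1, the lowest of the list at 2 h, was at 122 and 88.8 FPKM in DMSO and 121 and 88.7 FPKM at 2 h. CNN1 was the highest at 12 h, at 0.254 and 1.18 FPKM in DMSO and 1.97 FPKM at 12 h, and FHL1 the lowest, at 63.3 and 85.9 FPKM in DMSO and 53.8 FPKM at 12 h.

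Targets of YAP and TAZ other than CYR61 and CTGF (17 tested of 20 listed) had a median of -0.52 between the vehicle libraries. In DMSO 2, 2 were more than 2-fold higher and 3 lower, beside 8.72% and 4.77% of all genes. AMOTL2 and LATS2, which encode regulators of the Hippo pathway, were above both DMSO libraries in each SpiD7 library, 2 of 17 genes beside 8.93% of all genes. LATS2 was at 5.67 and 9.87 FPKM in DMSO, 15.6 and 22.8 FPKM at 2 h, 17.3 FPKM at 6 h and 19.2 FPKM at 12 h. NUAK2, the lowest of the list at 2 h and at 12 h, was at 5.15 and 36.6 FPKM in DMSO, 7.41 and 6.44 FPKM at 2 h and 5.07 FPKM at 12 h. GADD45A, which is also a gene of stress and DNA damage responses, had the highest change at 12 h, at 21.1 and 41.2 FPKM in DMSO, 93.6 FPKM at 6 h and 182 FPKM at 12 h (log2 change 2.62, standard error 0.49, limma, adjusted p = 0.455). No gene of the cofactor, cytoskeletal or YAP lists was called by limma at any time (0 calls). At an unadjusted p under 0.05, 1 cytoskeletal target passed at 2 h, 0 at 6 h and 2 at 12 h, 1, 1 and 2 YAP targets did, and 0, 2 and 1 cofactors did, beside 2.84%, 5.55% and 9.19% of all genes.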

How the data were processed

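Sequencing of OVCAR5 RNA gave 6 libraries. By the study's methods and the processing notes, the authors used Trim Galore for trimming and TopHat2 2.0.8 for alignment of the single reads and estimated expression with Cufflinks and Cuffdiff 2.1.1. Loci in the deposited table are human (hg38), although a mouse build is named in the methods. The deposited values used are FPKM, given by the authors for each side of 4 comparisons. Their own fold changes, p-values and q-values stand beside them and were not used. Each comparison had its own scale, so the 6 h and 12 h values were divided by 0.972 and 0.994, the ratios of the DMSO 1 values. Every FPKM column had a sample or group.

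The columns of the comparison named for replicate 2 were read as means. The weight of the first library was taken where its ratio to the mean column reached the lower limit (0.526 from 811 rows for DMSO, 0.509 from 967 rows for 2 h). Replicate 2 was the column less that share, divided by it, under the assumption of equal weights, and a remainder under 0.2% was set to 0. The deposited mean of EGR1, for example, was 186 FPKM for DMSO and 293 FPKM for 2 h. Values of 1 symbol were added up over its rows (33085 rows in all). IER3 had 6 rows, 1 of them above 0.

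Cuffdiff needs reads, so limma 3.58.1 in R 4.3.3 was used on log2(FPKM + 0.1), with 4 group means over the 6 libraries, after a test on simulated data with known changes. Other steps used Python 3.11.15 (pandas 2.3.3, numpy 2.4.6, matplotlib 3.10.9). The labels do not say whether replicates came from separate cultures, so the p-values measure only the spread between these samples. The pseudocount understates the fold of low genes, and a gene listed at 0 may be one whose estimate failed.

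The members, gene lists and tests were chosen with earlier results of these data known. The text names all 10 genes, the ends of each list at 2 h and 12 h against both vehicle libraries, and the 5 genes nearest to EGR1 and to IER5. Genes of a list that lay above both vehicle libraries throughout were named after their values were seen, as was MIR6723. Alternatives were other pseudocounts, filters, scalings, treatments of repeated symbols and of the mean columns, an intensity trend, a replicate block and leaving out each DMSO and 2 h library in turn.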

Additional observations from a re-analysis of the deposited data

How the results depend on the processing

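With both vehicle libraries in the test, the directions of most of the 10 genes depended on which one was used. Leaving out 1 of the DMSO or 2 h libraries turned the direction of 26 of 120 log2 changes, 25 of them without DMSO 1 or DMSO 2, and IER5 stayed between 1.74 and 2.14 at 2 h, 2.72 and 3.11 at 6 h and 2.83 and 3.23 at 12 h. The other genes that turned ranged, on the log2 scale, from EGR1 -0.29 to 5.59, EGR2 -1.82 to 6.84, EGR3 -2.34 to 5.75, IER2 -1.002 to 2.03, IER3 -2.60 to 0.93, IER5L -0.87 to 0.094, SRF -0.28 to 1.36, CYR61 -0.13 to 1.92 and CTGF -1.40 to 3.09 at 2 h, EGR1 -1.11 to 4.77, EGR2 -3.85 to 4.81, EGR3 -4.29 to 3.80, IER2 -1.57 to 1.46, IER3 -2.67 to 0.86, IER5L -0.0097 to 0.28, SRF -1.13 to 0.51, CYR61 -0.67 to 1.38 and CTGF -2.94 to 1.55 at 6 h, and EGR1 -2.61 to 3.27, EGR2 -5.12 to 3.53, EGR3 -4.37 to 3.72, IER2 -1.87 to 1.16, IER3 -2.09 to 1.45, SRF -1.30 to 0.34, CYR61 -0.93 to 1.12 and CTGF -3.15 to 1.34 at 12 h. The number of genes called was 0 to 21 at 2 h, 22 to 47 at 6 h and 26 to 51 at 12 h with a library left out. At 2 h, 3 genes were called, against 1 with a pseudocount of 1, 6 with 0.01, 6 with no filter on low values, 1 with an intensity trend and 107 with the mean columns as they stand. With no filter, 905 genes were called at 6 h and 1022 at 12 h, and with the columns as they stand 206 and 769; those columns are not independent libraries. As they stand, the log2 change of EGR3 was 0.21 at 6 h and 0.13 at 12 h, that of IER2 0.33 and 0.029 and that of IER3 at 12 h 0.085, all of the other sign, IER5 was called (limma, adjusted p = 0.0456, 0.0226 and 0.0211 at 2 h, 6 h and 12 h), 3 and 4 of the 10 genes were more than 2-fold lower than DMSO 2 at 2 h and 6 h, and 0 differed by more than 2-fold between the 2 h libraries (1 with a pseudocount of 1). EGR2 at 6 h was -0.53 with a pseudocount of 1, and EGR3 was 0.45 at 6 h and 0.36 at 12 h with 0.01. Of 250 log2 changes without a library left out, 239 kept their direction and side of the threshold. Many of these could not turn. The filters, the treatment of repeated symbols, the intensity trend and the replicate block left every log2 change of the 10 genes as it was. All 8 that turned did so with another pseudocount or with the mean columns as they stand. A replicate block could be fitted only over the 4 DMSO and 2 h libraries. Same-numbered libraries deviated together (correlation over genes 0.369) but share only a number. With the replicate block, 0 genes were called at 2 h (1874 at an unadjusted p under 0.05), and the smallest adjusted p of the 10 genes was 0.329 (limma). Each group held 1 library of each replicate number there, so the block could not alter a log2 change or its direction. Except where the construction shows it, the cause of these changes was not tested. With no counts in the table, counting error could not be given for any value.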
